A study of Mus musculus with 8 samples.

Results

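The transcripts described here encode voltage-gated sodium channels, voltage-gated calcium channels, HCN channels and the sodium leak channel NALCN, together with TRPC cation channels, the calcium release channels of the endoplasmic reticulum and the SERCA and PMCA calcium pumps. They were chosen with earlier results of these data known. The choice was by gene symbol, from the table in which the authors list the 10601 transcripts past their read threshold. Such a symbol was carried by 49 transcripts of 47 genes, and all 49 were among the 10588 transcripts tested. Cacng2, Cacng3 and Cacng8, known as auxiliary subunits of AMPA receptors, were left out by name. Channel genes under the threshold have no symbol there and were not analysed here. Scn8a and Cacnb2 each had a second transcript entry, and Trpc4ap, which encodes a protein that binds TRPC4, matched the symbol pattern without being a channel.

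The RNA was taken from the right cortex, with 4 bigenic and 4 nontransgenic C57BL/6 mice. Bigenic mice carried Camk2a-tTa and deltaNLS-hTDP-43, so that the transactivator was made in neurons that use the Camk2a promoter and drove a human TDP-43 with a defective nuclear localization signal. The nontransgenic mice carried neither transgene, and effects of the transactivator and of the human protein cannot be told apart in this design. All 8 mice ate doxycycline, which keeps the transgene off, until 28 days of age and were sampled 10 days after it was withdrawn, at 38 days of age.

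Voltage-gated sodium channels open during depolarization and carry the upstroke of the action potential. HCN channels pass a depolarizing current at negative potentials, and NALCN passes a steady sodium leak that sets the resting potential. Voltage-gated calcium channels couple depolarization to transmitter release and signalling. IP3 and ryanodine receptors release calcium from the endoplasmic reticulum, SERCA pumps return it there, and PMCA pumps expel it from the cell.

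Values are normalized counts, which are reads per transcript that the authors scaled per mouse and rounded. Bigenic mice are called A to D and nontransgenic mice E to H, since the column names give the genotype but not the replicate number. Column totals were between 20.1 and 22.0 M, and the reads behind them between 10.6 M in mouse B and 31.9 M in mouse D. Mouse B stood apart from the other bigenic mice on the first principal component of all transcripts tested, at 46.0 against 12.8 to 15.1, with the nontransgenic mice between -26.5 and -14.0. Entry uc999vvf.1, which carries no mouse gene symbol and which the files do not name as the transgene, lay between 29375 and 41550 in bigenic and between 5 and 80 in nontransgenic mice, and mouse Tardbp between 4908 and 5502 against 6116 to 7116. Slc17a7, the vesicular glutamate transporter of cortical excitatory neurons, was at a mean of 14742 in bigenic and 13168 in nontransgenic mice, and is a defining marker of this tissue.

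Of the 49 transcripts, 25 differed between bigenic and nontransgenic mice at a limma adjusted p-value below 0.05 (Benjamini-Hochberg over all transcripts tested), which is 51.0%, whereas 35.9% of all transcripts tested did. Upregulated were 12 of the 49, against 20.5% of all transcripts, and downregulated were 13, against 15.4%. The values of the 2 groups did not overlap for 24 of the 49 transcripts and for 39.0% of all. For the 49 the median log2(fold change) was 0.02, and for all transcripts 0.03. The median level of the 49 was 2397 against 838 for all transcripts. In the highest of 10 bins of all transcripts by level, 49.9% differed, 21.5% upregulated and 28.3% downregulated, and 16 of the 49 fall in that bin. A comparison at equal level was not tested. The upregulated count moved most with a mouse left out, to 6 without mouse D (13 downregulated) and to 7 without mouse F or without mouse G (12 downregulated each). Of the 49, 8 were under the threshold of 10 RPM (parts of a mouse's summed value) in at least 1 mouse, and 4 of these 8 (Hcn3, Ryr1, Trpc6 and the second Scn8a entry) were among the 25. With the threshold required in every mouse, 22 of 41 differed (53.7%), against 37.7% of all transcripts so filtered. Without mouse B all 25 calls were kept and 3 more were made, which gave 28 of 49 (57.1%) against 45.5% of all transcripts. Whether fewer cells of a type or less RNA per cell lay behind a lower value cannot be told apart in bulk cortex.

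**Figure D1:**
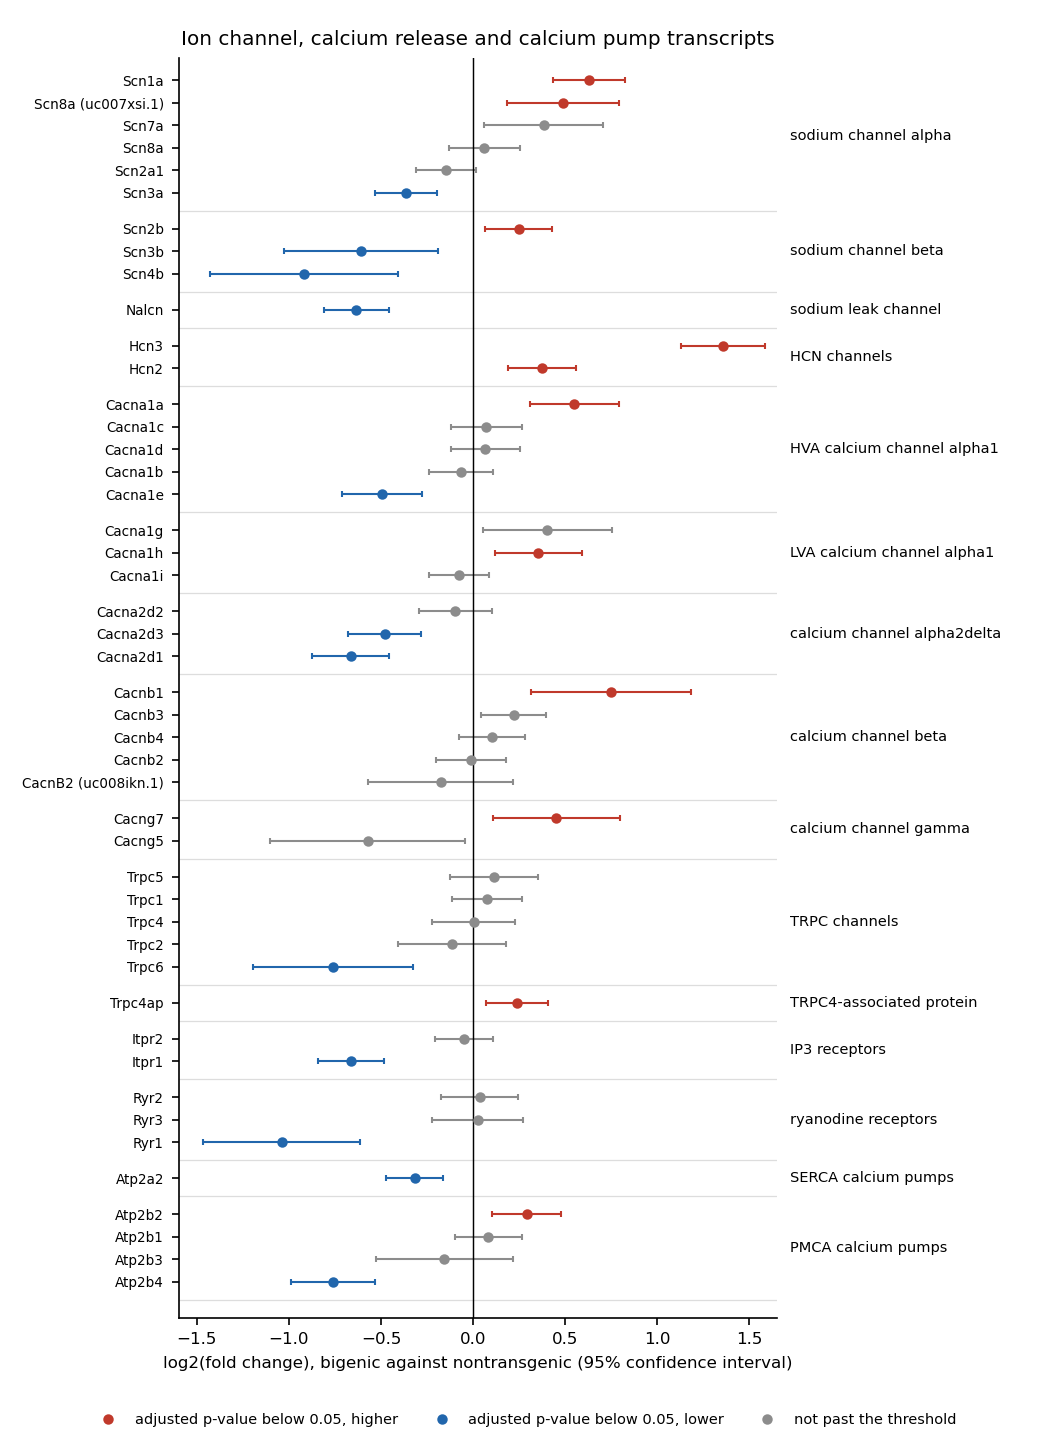
Log2(fold change) of 46 of the transcripts, bigenic against nontransgenic, with the 95% confidence interval from limma, grouped by family and coloured by whether the adjusted p-value was below 0.05. Hcn3 lies farthest to the right at 1.36 and Ryr1 farthest to the left at -1.04, and most families hold members on both sides of 0.

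The promoter regions of the 4 members with the smallest p-values in either direction that have an entry in the RefSeq promoter table are printed here for reference beside the values that follow. Each runs 5′ to 3′ from 250 bases before to 50 bases after the annotated start in the GRCm38.p6 build, with matches to a GC box (GGGCGG) or to the core of a cAMP response element (TGACG), on either strand, in capitals. The regions are chr2:66440788-66441087 on the minus strand for Scn1a and chr10:79716384-79716683 on the plus strand for Hcn2, both upregulated, and chr14:123627095-123627394 and chr1:133753698-133753997, both on the minus strand, for the downregulated Nalcn and Atp2b4.
Scn1a: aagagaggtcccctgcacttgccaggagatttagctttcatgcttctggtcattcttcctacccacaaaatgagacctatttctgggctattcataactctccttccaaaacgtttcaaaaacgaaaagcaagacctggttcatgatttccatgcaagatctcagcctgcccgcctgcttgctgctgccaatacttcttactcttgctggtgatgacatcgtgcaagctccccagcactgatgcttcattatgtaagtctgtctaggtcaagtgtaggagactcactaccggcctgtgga
Hcn2: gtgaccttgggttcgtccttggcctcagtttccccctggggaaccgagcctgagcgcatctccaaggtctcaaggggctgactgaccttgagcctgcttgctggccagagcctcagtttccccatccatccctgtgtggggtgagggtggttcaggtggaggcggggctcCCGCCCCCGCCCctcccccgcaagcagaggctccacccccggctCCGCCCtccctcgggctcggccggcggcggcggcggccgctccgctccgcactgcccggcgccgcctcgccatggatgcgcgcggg
Nalcn: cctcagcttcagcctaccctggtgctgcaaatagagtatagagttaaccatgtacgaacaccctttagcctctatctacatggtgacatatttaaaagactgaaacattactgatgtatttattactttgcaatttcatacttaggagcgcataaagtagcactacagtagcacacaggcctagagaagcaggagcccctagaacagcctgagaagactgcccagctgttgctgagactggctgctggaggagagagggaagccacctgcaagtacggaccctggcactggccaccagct
Atp2b4: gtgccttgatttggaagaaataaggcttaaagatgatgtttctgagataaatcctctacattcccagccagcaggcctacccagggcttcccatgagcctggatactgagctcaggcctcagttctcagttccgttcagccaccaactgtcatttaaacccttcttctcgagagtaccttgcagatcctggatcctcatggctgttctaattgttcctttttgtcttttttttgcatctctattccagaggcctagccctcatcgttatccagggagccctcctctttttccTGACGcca

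The Hcn2 promoter held 3 GC boxes, 2 of them in direct succession, and 72.3% of its bases were G or C. The other 3 promoters held no GC box and had a G and C content between 47.3 and 48.3%, and the Atp2b4 promoter held a single response element core near its end. RefSeq listed 48 promoters for 34 of the 47 genes. A GC box was found in 52.1% of these and in 35.7% of all 32851 promoters of the table, a response element core in 22.9% against 20.8%, and a TATA box (TATAAA) in 6.25% against 13.6%. The median G and C content was 61% for the 48 promoters and 52.7% for all.

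Among the pore-forming sodium channel alpha subunits, Scn1a rose and Scn3a fell, while the main Scn8a transcript and Scn2a1 did not pass the test. Scn1a (chromosome 2, 66108838 to 66278897 in the mm9 build, which all gene positions given here use) encodes Nav1.1, known for its part in fast-spiking interneurons. It measured 7835, 9832, 9114 and 9542 normalized counts in mice A to D and 6272, 5456, 5880 and 5820 in mice E to H. The lowest bigenic mouse was thus above the highest nontransgenic mouse, and the means of 9081 ± 881 and 5857 ± 334 (SD, n = 4 each, as for every mean given here) differed 1.55-fold (log2(fold change) 0.63, SE 0.09, limma adjusted p-value = 0.000631). Pvalb, the marker of fast-spiking interneurons, was at 1332 ± 629 against 1168 ± 118 (limma adjusted p-value = 0.793). Of the 8 interneuron markers listed, Pvalb among them, 2 were downregulated (Sst and Gad1) and 0 upregulated. Whether the number of fast-spiking cells differed was not tested. Scn3a (chromosome 2, 65295175 to 65405684), which encodes Nav1.3 and is best known from the developing brain, measured 1267, 1137, 1278 and 1255 in mice A to D and 1684, 1611, 1461 and 1604 in mice E to H. Every bigenic mouse was below every nontransgenic mouse (log2(fold change) -0.36, SE 0.08, limma adjusted p-value = 0.00526).

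Scn2a1 and Scn8a encode Nav1.2 and Nav1.6, the main channels of the axon initial segment of excitatory neurons. Scn2a1 was at 12568 ± 430 in bigenic and 13928 ± 1022 in nontransgenic mice, with a 95% confidence interval of the log2(fold change) from -0.31 to 0.02. The main Scn8a transcript was at 12546 ± 1272 and 11994 ± 547, with an interval from -0.13 to 0.25. Groups overlapped for both. The second Scn8a entry (uc007xsi.1) was about as low as the filter allows, at 279, 381, 276 and 357 in mice A to D and 256, 223, 202 and 234 in mice E to H, without overlap (log2(fold change) 0.49, SE 0.14, limma adjusted p-value = 0.0202), and the call was lost without mouse D, F or G. Scn7a, which encodes the sodium-sensing channel Nax, was at 230 ± 40.1 against 174 ± 5.69, and its groups overlapped (limma adjusted p-value = 0.0628).

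Scn1a, Scn2a1, Scn3a and Scn7a lie in the same region of chromosome 2, between 65295175 and 66622971, and are related in sequence. Of the 50-base windows in their exons, 93.6% occurred once in the genome for Scn1a, 90.1% for Scn2a1, 89.6% for Scn3a and 100% for Scn7a, so that reads from the remaining windows would not have been counted for any of them. For the other genes described, at least 93.3% of windows occurred once. Per kilobase of exon, Scn1a made up 24.0 ± 1.33% of the sum of Scn1a, Scn2a1, Scn3a and Scn8a in bigenic mice and 16.3 ± 0.328% in nontransgenic mice. The share of Scn2a1 was 39.9 ± 2.35% against 46.4 ± 0.669%, that of Scn3a 2.89 ± 0.254% against 3.90 ± 0.226%, and that of Scn8a 33.2 ± 1.5% against 33.4 ± 0.450%. Scn2a1 was the most abundant of the 4 in every mouse by this measure, followed by Scn8a, Scn1a and Scn3a.

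**Figure D2:**
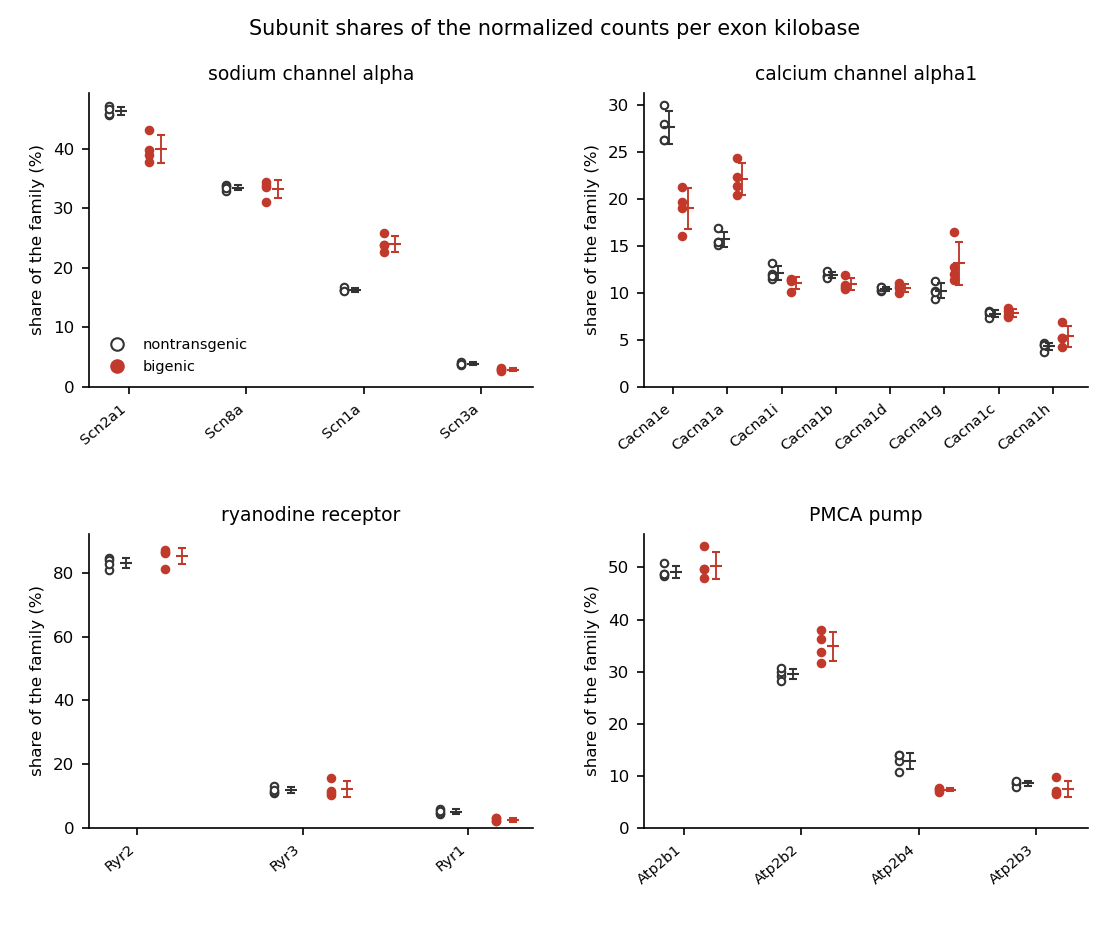
Share of each subunit in the summed normalized counts per exon kilobase of its family, for sodium channel alpha subunits, calcium channel alpha1 subunits, ryanodine receptors and PMCA pumps (y axis, percent). Points are mice, open for nontransgenic and filled for bigenic, with the mean and SD beside them, and Scn1a, Cacna1a and Atp2b2 had larger shares in the bigenic mice while Cacna1e, Ryr1 and Atp2b4 had smaller ones.

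Of the sodium channel beta subunits, which modify gating and anchor the alpha subunits, Scn2b was upregulated and Scn3b and Scn4b were downregulated. Scn2b (chromosome 9, 44925959 to 44938153) measured 8795, 10405, 8729 and 8612 against 7975, 7200, 7565 and 7983 in mice A to D and E to H respectively, without overlap (log2(fold change) 0.25, SE 0.08, limma adjusted p-value = 0.0382). The call was lost when any mouse other than B was left out. Without mouse B its log2(fold change) was 0.18 (limma adjusted p-value = 0.0231).

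Scn3b (chromosome 9, 40076801 to 40099203) measured 2214, 1218, 2330 and 2218 in mice A to D and 3289, 2939, 2694 and 2901 in mice E to H. All bigenic mice were below all nontransgenic mice, with mouse B far under the rest (log2(fold change) -0.61, SE 0.19, limma adjusted p-value = 0.0302). Without mouse B the log2(fold change) shrank to -0.39 and the limma adjusted p-value was 0.00144. The call was lost when any of the nontransgenic mice was left out.

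Scn4b (chromosome 9, 44946520 to 44962235), which encodes the beta4 subunit known for resurgent sodium current, is the neighbour of Scn2b on the chromosome and moved the other way. It measured 1997, 1092, 896 and 866 in mice A to D and 1947, 2302, 2149 and 2234 in mice E to H (log2(fold change) -0.92, SE 0.23, limma adjusted p-value = 0.0121). Groups overlapped because mouse A lay among the nontransgenic mice, while the other bigenic mice were at 1092 or less. Scn4b is also abundant in striatal neurons, and in mouse A the summed level of 7 striatal markers was 12000 against 5106 to 7885 in the other mice, with Adora2a at 640 against 19 to 218 and Drd2 at 246 against 6 to 73. None of the 7 striatal markers passed the limma test between the groups (2 had an unadjusted p-value below 0.05), and the part of striatal tissue in the Scn4b values was not tested. Without mouse A the log2(fold change) Scn4b was -1.19 (limma adjusted p-value = 0.000223).

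Nalcn (chromosome 14, 123675863 to 124026366) was downregulated. It measured 2195, 1913, 1969 and 1978 in mice A to D and 3434, 2995, 2929 and 3152 in mice E to H. The highest bigenic mouse was below the lowest nontransgenic mouse, and the means were 2014 ± 124 and 3127.5 ± 225 (log2(fold change) -0.63, SE 0.08, limma adjusted p-value = 0.000368). Of the 3 listed subunits that assemble with NALCN, Unc80 fell (log2(fold change) -0.35, SE 0.10, limma adjusted p-value = 0.0212), Fam155a rose (0.41, SE 0.08, limma adjusted p-value = 0.00408) and Unc79 was at 2151 ± 220 against 2000.5 ± 149 (limma adjusted p-value = 0.426). The genes of the NALCN complex therefore did not share a direction.

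Hcn3 (chromosome 3, 88949996 to 88964118) had the highest log2(fold change) of the 49. It measured 449, 438, 433 and 499 in mice A to D and 180, 197, 162 and 170 in mice E to H. The groups were far apart in comparison with the spread within either, at 455 ± 30.2 and 177 ± 15.1, a ratio of 2.57 (log2(fold change) 1.36, SE 0.10, limma adjusted p-value = 2.70e-05). Hcn3 was under 10 RPM in all 4 nontransgenic mice and passed the filter only through the bigenic mice, and with no filter on low values its limma adjusted p-value was 2.93e-05. Hcn3 held 5.83 ± 0.539% of the family sum per exon kilobase in bigenic and 2.74 ± 0.277% in nontransgenic mice. Its exons overlap those of Pklr, on the opposite strand, over 17.1% of their length, and no source states whether strand was used in counting, so reads of the 2 genes in that stretch cannot be told apart. The next largest such overlap was 16% for Cacnb4, and the rest were at 5.54% or less.

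Hcn2 (chromosome 10, 79179379 to 79198853) measured 3071, 2945, 3383 and 3617 in mice A to D and 2516, 2536, 2604 and 2367 in mice E to H, without overlap (log2(fold change) 0.37, SE 0.08, limma adjusted p-value = 0.00677). Its call was kept with each mouse left out, but not after a trend on exon GC content and exon length was removed from each mouse (log2(fold change) 0.10, limma adjusted p-value = 0.608). With 65.4% G and C, Hcn2 had the most GC-rich exons of the 49. Of the 3 partner genes of HCN channels that were tested (Pex5l, Flna and Nedd4l), none passed with limma, 0 of them at an unadjusted p-value below 0.05, and their log2(fold changes) lay between -0.09 and 0.00.

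Of the 8 calcium channel alpha1 subunits, which form the pore, 2 rose, 1 fell and 5 did not pass the test. Cacna1a (chromosome 8, 86912339 to 87164145), which encodes the P/Q-type channel of presynaptic terminals, measured 4657, 6773, 5525 and 6010 in mice A to D and 3859, 3683, 3988 and 4044 in mice E to H. Groups did not overlap (log2(fold change) 0.55, SE 0.11, limma adjusted p-value = 0.00394). Cacna1e (chromosome 1, 156239649 to 156573049), which encodes the R-type channel, measured 4840, 4955, 6099 and 5864 against 8359, 7602, 6924 and 7644. It was lower in every bigenic mouse than in any nontransgenic mouse (log2(fold change) -0.49, SE 0.10, limma adjusted p-value = 0.00394).

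Per kilobase of exon, Cacna1e had the largest share of the 8 alpha1 subunits in nontransgenic mice, at 27.6 ± 1.76% against 15.7 ± 0.790% for Cacna1a, whereas in bigenic mice Cacna1e was at 19.0 ± 2.18% and Cacna1a at 22.1 ± 1.68%. By this measure Cacna1a had the larger share in each of the 4 bigenic mice, though barely in mouse C (21.4% against 21.2%), and Cacna1e in each of the 4 nontransgenic mice. Without division by length, Cacna1e was above Cacna1a in bigenic mice A (4840 against 4657) and C (6099 against 5525). Cacna1b, which encodes the N-type channel, was at 2454.5 ± 131 against 2571 ± 177, and the L-type genes Cacna1c and Cacna1d at 1569 ± 113 against 1494 ± 120 and at 2226 ± 183 against 2123 ± 136. The limma adjusted p-values of these 3 lay between 0.529 and 0.563, and the intervals of their log2(fold changes) reached no farther than -0.24 and 0.26.

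Among the low voltage-activated (T-type) subunits, Cacna1h (chromosome 17, 25511230 to 25570728) measured 1351, 1009, 1156 and 1188 in mice A to D and 803, 970, 901 and 999 in mice E to H. Mouse B was only just above mouse H (log2(fold change) 0.35, SE 0.11, limma adjusted p-value = 0.0271). The call was lost without any of mice A, D, E and G, under quantile normalization and after removal of the GC and length trend (limma adjusted p-value = 0.547). Cacna1g measured between 2280 and 4037 in bigenic mice and between 2065 and 2592 in nontransgenic mice, with mouse B the highest (limma adjusted p-value = 0.0707). Cacna1i was at 2455 ± 150 against 2590 ± 102 (limma adjusted p-value = 0.423).

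The alpha2delta subunits, extracellular proteins that raise the number of calcium channels at the surface, fell in 2 of 3 cases. Cacna2d1 (chromosome 5, 15440509 to 15880329) measured 6389, 4949, 6393 and 6206 in mice A to D and 10048, 9053, 9497 and 9151 in mice E to H. The gap between the groups exceeded the range of either (log2(fold change) -0.66, SE 0.09, limma adjusted p-value = 0.000704). Cacna2d3 (chromosome 14, 29718133 to 30535050), the longest gene of the 49, measured 2190, 1832, 1883 and 1689 against 2797, 2589, 2610 and 2558, without overlap (log2(fold change) -0.48, SE 0.09, limma adjusted p-value = 0.00275). Cacna2d2 was at 690 ± 63.3 against 736.5 ± 47.8 (limma adjusted p-value = 0.426).

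Among the beta subunits, which bind the alpha1 subunit inside the cell, only Cacnb1 passed the test. Cacnb1 (chromosome 11, 97862822 to 97884348) measured 1784, 3342, 1792 and 1912 in mice A to D and 1186, 1184, 1186 and 1538 in mice E to H (log2(fold change) 0.75, SE 0.19, limma adjusted p-value = 0.0145). Mouse B was far above the other bigenic mice and mouse H above the other nontransgenic mice, and the groups did not overlap. Without mouse B the log2(fold change) was 0.53 (limma adjusted p-value = 0.00118). Cacnb3, the most abundant beta subunit per exon kilobase, measured 4977 to 5678 in bigenic mice and 4062 to 4794 in nontransgenic mice, which did not overlap, and its limma adjusted p-value was 0.0524. Cacnb4 was at 9376 ± 458 against 8766 ± 765, the main Cacnb2 transcript at 924 ± 75.0 against 931 ± 59.3, and the second Cacnb2 entry (uc008ikn.1) at 201 ± 39.7 against 225 ± 37.3.

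Of the genes named as gamma subunits, Cacng5 and Cacng7 were in the set by symbol, which left out Cacng2, Cacng3 and Cacng8 by rule. Whether the Cacng5 and Cacng7 proteins join calcium channels or AMPA receptors in this tissue was not tested. Cacng7 (chromosome 7, 3333055 to 3367810) measured 1200, 1013, 1589 and 1702 in mice A to D and 994, 1024, 1046 and 880 in mice E to H. Groups overlapped, since mouse B was within the nontransgenic range (log2(fold change) 0.45, SE 0.16, limma adjusted p-value = 0.0453). It was the least stable of the 25 calls and was lost under 12 of 18 alternatives. Cacng5 measured 110 to 251 against 214 to 328 (limma adjusted p-value = 0.085).

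**Figure D3:**
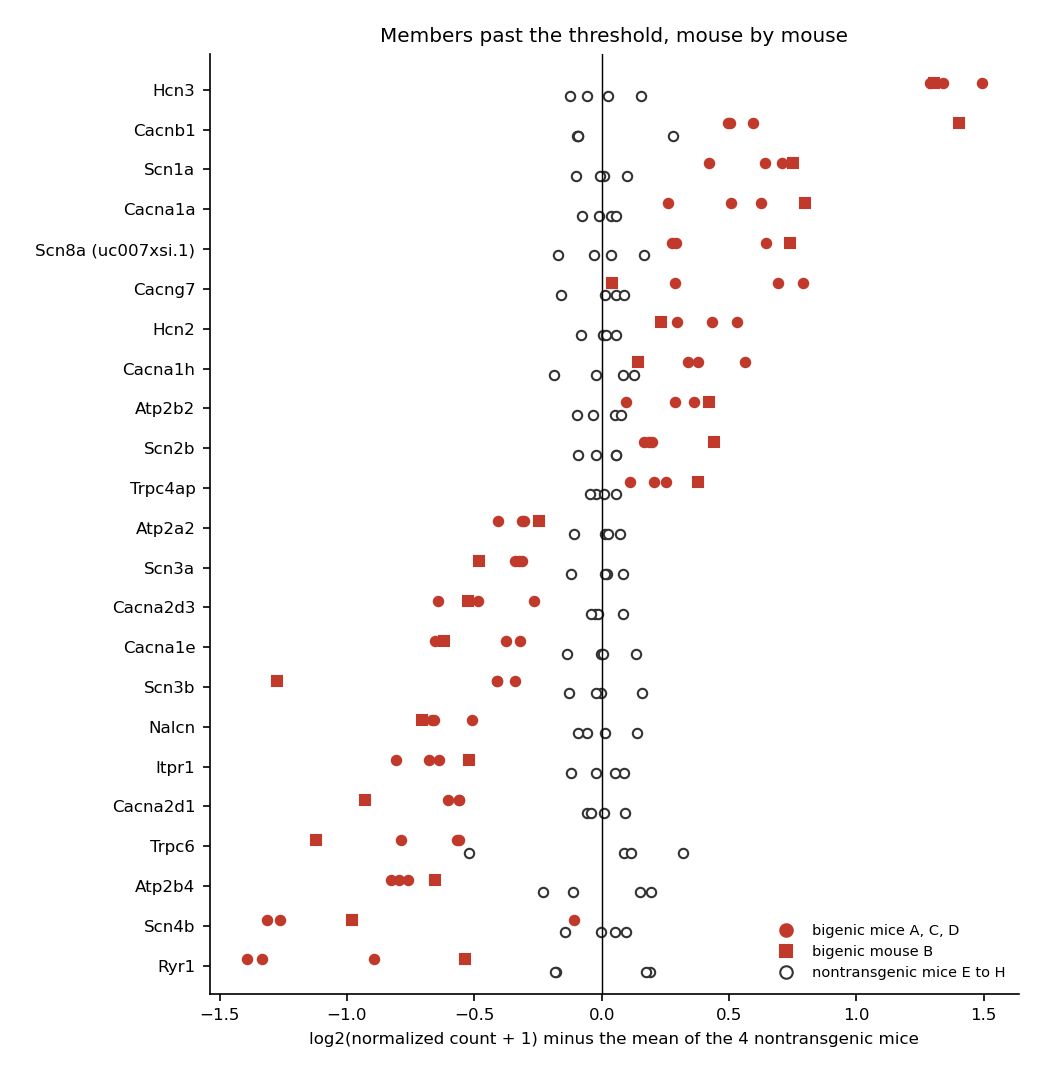
Log2(normalized count + 1) of 23 transcripts past the threshold in each mouse, as the difference from the mean of the 4 nontransgenic mice (x axis), with bigenic mice filled and mouse B drawn as a square. Bigenic and nontransgenic points overlap for Scn4b and Cacng7, and mouse B lies far from the other bigenic mice for Cacnb1 and Scn3b.

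Among the TRPC channels, nonselective cation channels opened downstream of phospholipase C, Trpc6 fell. Trpc6 (chromosome 9, 8544432 to 8680565) measured 188, 149, 219 and 220 in mice A to D and 346, 406, 352 and 226 in mice E to H, and mouse H was only just above mouse D (log2(fold change) -0.76, SE 0.19, limma adjusted p-value = 0.0136). Its protein responds to diacylglycerol. Trpc1, Trpc2, Trpc4 and Trpc5 had log2(fold changes) between -0.12 and 0.11 and limma adjusted p-values of 0.426 or above. Trpc4ap measured 2819 to 3392 in bigenic mice and 2529 to 2715 in nontransgenic mice, without overlap (log2(fold change) 0.24, SE 0.08, limma adjusted p-value = 0.0343), and its call was lost when any mouse other than A or B was left out.

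Itpr1 (chromosome 6, 108163112 to 108501103), the main neuronal IP3 receptor, had the second smallest p-value of the 49. It measured 14264, 17388, 16021 and 15604 in mice A to D and 24609, 22990, 26507 and 25915 in mice E to H. The highest bigenic mouse was well below the lowest nontransgenic mouse, and the means of 15819 ± 1287 and 25005 ± 1560 gave a log2(fold change) of -0.66 (SE 0.08, limma adjusted p-value = 0.000315). Itpr2, known from astrocytes, was at 789 ± 37.8 against 817 ± 19.9 (limma adjusted p-value = 0.588). Itpr1 held 96.3% of the sum of both per exon kilobase in bigenic and 97.5% in nontransgenic mice.

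Ryr1 (chromosome 7, 29788359 to 29910170), best known from skeletal muscle, measured 293, 376, 207 and 216 in mice A to D and 482, 622, 480 and 615 in mice E to H. Groups did not overlap, and the means of 273 ± 78.8 and 550 ± 79.4 gave the largest fall of the 49 (log2(fold change) -1.04, SE 0.19, limma adjusted p-value = 0.00272). Ryr2, the most abundant ryanodine receptor in these samples, was at 10995 ± 1209 against 10702 ± 806, and Ryr3 at 1500 ± 203 against 1471 ± 147. The intervals of the log2(fold change) ran from -0.17 to 0.24 for Ryr2 and from -0.22 to 0.27 for Ryr3. The share of Ryr1 among the 3 receptors per exon kilobase was 2.50 ± 0.591% in bigenic and 5.07 ± 0.712% in nontransgenic mice.

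Of the calcium pumps, Atp2a2 (chromosome 5, 122903531 to 122952183), which encodes SERCA2 and was the only SERCA gene found, measured 13978, 15626, 15024 and 14942 in mice A to D and 19519, 17188, 18706 and 18888 in mice E to H, without overlap (log2(fold change) -0.32, SE 0.07, limma adjusted p-value = 0.0062). Atp2b4 (chromosome 1, 135599255 to 135697618), which encodes PMCA4, measured 3958, 4455, 4138 and 4040 against 8032, 6483, 5983 and 7791. The bigenic mice lay close together and all under the nontransgenic mice (log2(fold change) -0.76, SE 0.10, limma adjusted p-value = 0.000565). Atp2b2 (chromosome 6, 113695663 to 113992607), which encodes PMCA2, rose, with 20599, 25843, 23547 and 24789 against 20040, 18047, 20351 and 18872 (log2(fold change) 0.29, SE 0.08, limma adjusted p-value = 0.0234). Mouse A was only just above mouse G in Atp2b2, and the call was lost without mouse D, F or H.

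Atp2b1 and Atp2b3, which encode PMCA1 and PMCA3, did not pass, at 22694 ± 2049 against 21386 ± 1252 and at 2299 ± 683 against 2495 ± 192. In Atp2b3, mouse B was at 3317 and the other bigenic mice at 1872 to 2046. Without mouse B, Atp2b3 fell by 0.35 on the log2 scale (limma adjusted p-value = 0.00283), with the other bigenic mice below all nontransgenic mice. Per exon kilobase, Atp2b4 held 7.30 ± 0.283% of the PMCA sum in bigenic and 12.9 ± 1.52% in nontransgenic mice, and Atp2b2 34.9 ± 2.78% against 29.5 ± 0.995%.

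To ask whether subunits of a family changed unequally, the log2 ratio of 2 paralogues was formed in each mouse for 14 pairs and compared with an exact two-sided permutation test over 70 arrangements, whose smallest possible p is 0.0286. The groups did not overlap for 7 pairs, which all reached p = 0.0286 in the exact test and 0.0571 after adjustment over the 14 pairs, so that no pair passed 0.05 after adjustment. At least 9 pairs would have had to reach the smallest p for any to pass. Among these pairs, Scn4b relative to Scn2b differed by -1.16 on the log2 scale, Scn1a relative to Scn2a1 by 0.77, Cacna1a relative to Cacna1b by 0.61, Itpr1 relative to Itpr2 by -0.61 and Scn3a relative to Scn2a1 by -0.22. In absolute terms, there were 0.63 to 0.82 normalized counts of Scn1a for each of Scn2a1 in bigenic mice and 0.41 to 0.44 in nontransgenic mice. Scn4b relative to Scn2b did not overlap even though Scn4b itself did, with mouse A at 0.227 and the nontransgenic mice at 0.244 to 0.320. For Cacna1c relative to Cacna1d, Cacna1h relative to Cacna1g, and Ryr2 relative to Ryr3 the differences lay between -0.05 and 0.01.

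Genes that anchor, assemble or regulate these channels were listed by function. Of 79 genes listed, 64 were found, with 65 transcripts, and 35 transcripts (53.8%) passed the test, 15 upregulated and 20 downregulated, against 35.9% of all transcripts. The median level of the 65 was 3724 against 838 for all, and a comparison at equal level was not tested. For sodium channels, Ank3, which encodes the ankyrin-G of the axon initial segment, rose from 10002.5 ± 279 to 16407.5 ± 1045 (log2(fold change) 0.71, limma adjusted p-value = 8.83e-05), Nfasc rose (0.44, limma adjusted p-value = 0.0105), and Fgf13, which binds the channel's tail, fell (-0.95, limma adjusted p-value = 0.000321). In all, 2 of 10 transcripts of that list rose and 2 fell.

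Among the 12 regulators of calcium channels, 4 rose and 3 fell, with Stac2, a scaffold that binds L-type channels, at 1.29 (limma adjusted p-value = 0.000297) and Akap5, an anchor for protein kinase A, at -0.64 (limma adjusted p-value = 0.000416). Of the 4 store-operated calcium entry genes none passed with limma, 0 of them at an unadjusted p-value below 0.05, and their log2(fold changes) lay between -0.05 and 0.23.

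The regulators of calcium release channels had 9 of 11 transcripts past the test, 5 upregulated and 4 downregulated. Fkbp1a, which encodes a binding protein of ryanodine receptors, fell (log2(fold change) -1.06, limma adjusted p-value = 8.83e-05), as did the scaffold gene Homer2 (-0.59, limma adjusted p-value = 0.00072), while Ahcyl2, whose protein is related to an inhibitor of IP3 receptors, rose (0.54, limma adjusted p-value = 0.000511). Among other transporters of calcium, the sodium-calcium exchanger genes Slc8a2 and Slc8a3 rose by 0.64 and 0.63 (limma adjusted p-value = 0.00132 and 0.0012) and Vdac1 of the outer mitochondrial membrane fell (-0.49, limma adjusted p-value = 0.00126).

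Of 14 transcripts of calcium buffers and sensors, 7 were downregulated, against 15.4% of all transcripts, 1 was upregulated and 6 did not pass. Their median level was 2503 against 838 for all, and here too a comparison at equal level was not tested. Hpcal4 went from 21988 ± 772 to 7208.5 ± 1389 (log2(fold change) -1.63, limma adjusted p-value = 3.47e-05), Calb1, which encodes calbindin, from 4445.5 ± 61.7 to 2047 ± 216 (-1.12, limma adjusted p-value = 2.46e-05), and Ncald from 13613.5 ± 1108 to 7928 ± 879 (-0.78, limma adjusted p-value = 0.00034). The groups of these 3 genes did not overlap.

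**Figure D4:**
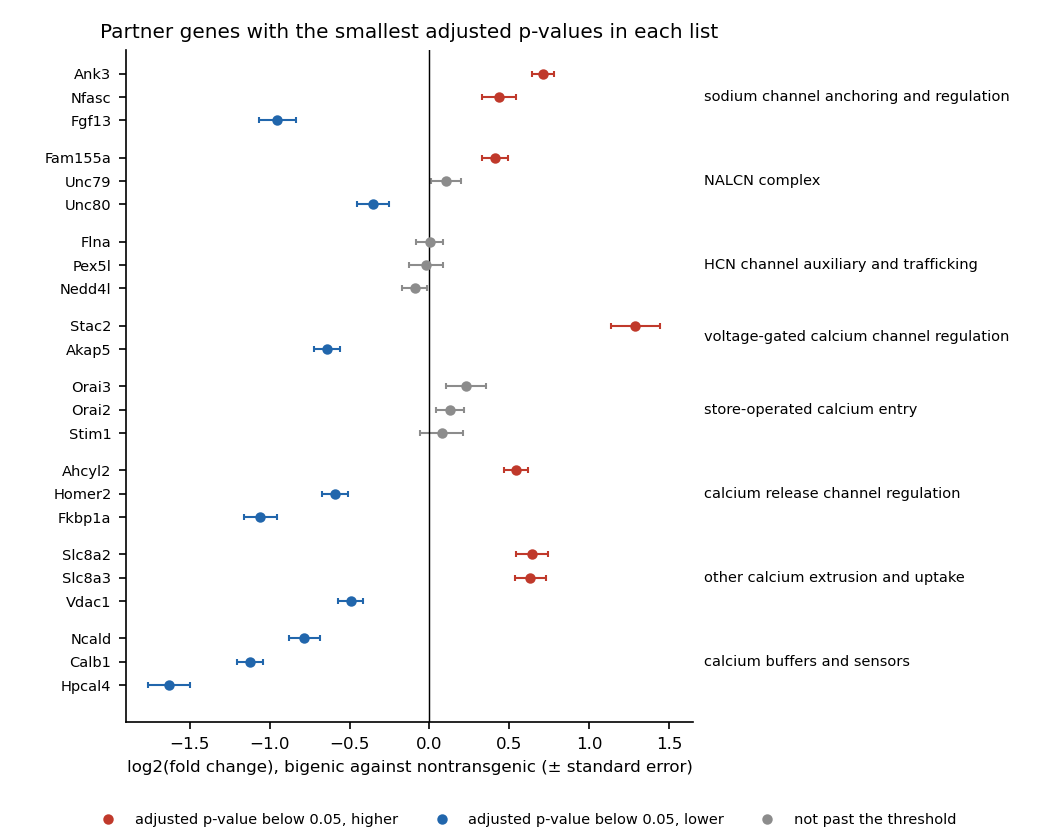
Log2(fold change) with its SE for up to 3 top-ranked genes of each partner list by adjusted p-value, bigenic against nontransgenic, coloured by whether the adjusted p-value was below 0.05. No gene of the HCN channel list or of the store-operated calcium entry list passed, and the 3 buffers and sensors shown lie to the left of 0.

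The genes described are long, with a median span of 111 kb against 28.3 kb for all genes tested, and among main transcripts the 11 upregulated genes had a median of 34.8 kb and the 13 downregulated ones a median of 122 kb. The median GC content of their exons was 58.0% where upregulated, 48.7% where downregulated and 49.6% over all genes tested. Spearman's correlation of the log2(fold change) across the 47 genes was -0.24 with span and 0.33 with exon GC content, and across all 10298 genes with an annotation -0.07 and 0.22. These are correlations across genes, which share the same 8 libraries and are not independent. In the last of 10 span bins of all genes, with spans from 154 kb upward, 15.6% were upregulated and 25.2% downregulated. Of the 49 transcripts, 20 fall in it, with both Cacnb2 entries among them. After a trend on exon GC content and exon length was removed from each mouse, 8 of the 49 transcripts were upregulated and 15 downregulated, in place of 12 and 13. Over all transcripts, 2087 of 10298 were then upregulated and 1889 downregulated, in place of 2167 and 1629 of 10588. Hcn2, Cacna1h, Atp2b2, Trpc4ap and Cacng7 lost their calls, and Scn7a (higher), Cacna1b and Cacna1i (both lower) gained one.

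**Figure D5:**
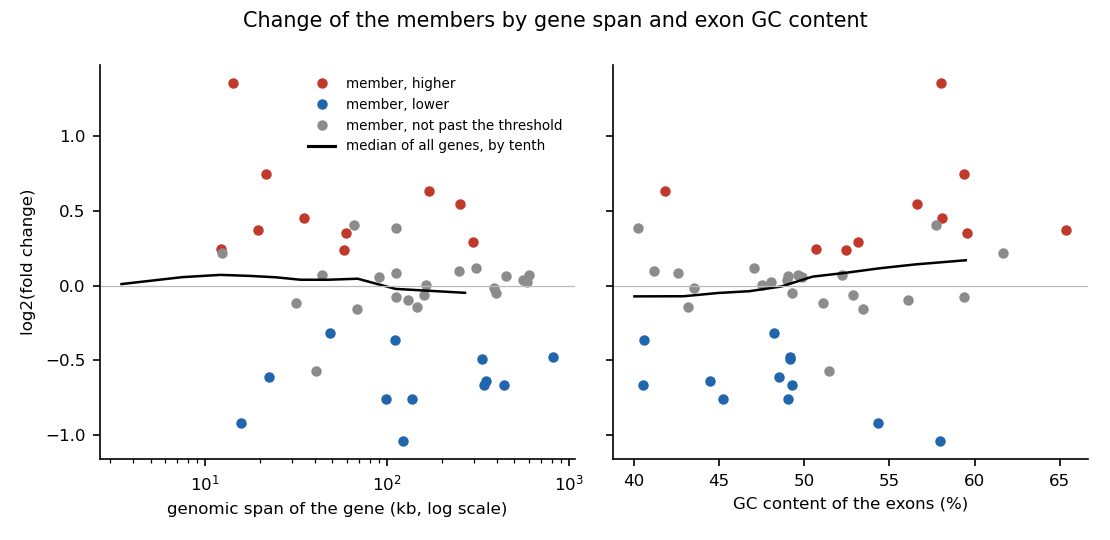
Log2(fold change) of 44 of the genes, main transcripts only, against the genomic span (left, kb on a log scale) and the GC content of the exons (right, percent), coloured as called higher, lower or neither. The black line joins the medians of all genes tested in 10 bins of equal size, and it stays between -0.07 and 0.17. Single genes spread more widely than such medians, from -1.04 to 1.36 for those plotted and from -3.52 to 10.88 for all tested.

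Marker genes of cell types were summed per mouse and are given beside these values. For comparison with the counts below, 20.5% of all transcripts tested were upregulated and 15.4% downregulated, and 39.0% had groups that did not overlap. Inhibitory interneuron markers summed to between 16381 and 17009 in bigenic and between 17795 and 19671 in nontransgenic mice, with 2 of 8 downregulated (Sst and Gad1) and none upregulated. The astrocyte sum was also lower without overlap, at 110602 to 127640 against 134277 to 145284, and most of it came from Slc1a2, a glutamate transporter, with means of 90026 and 106787. Without Slc1a2 the sums were 25963 to 31744 against 32655 to 35322. Of the 8 astrocyte markers, 4 were downregulated and 4 did not pass, 2 had groups that did not overlap, and their log2(fold changes) lay between -0.63 and 0.19. Microglial markers summed to 4144 to 4997 against 5299 to 6112, with 5 of 7 downregulated. Excitatory neuron, general neuron, oligodendrocyte, oligodendrocyte precursor and endothelial sums overlapped between the groups. Of 9 listed choroid plexus markers, 4 were tested (Ttr, Clic6, F5 and Kl), and Aqp1, Folr1, Kcnj13, Otx2 and Slc4a5 were not. All 4 were upregulated, with sums of 8385 to 19459 against 363 to 1203. Most of the sum came from Ttr, with means of 13603 and 724. Without Ttr the sums were 586 to 939 against 111 to 180. Clic6, F5 and Kl were thus under 10 RPM in every nontransgenic mouse. They passed the filter only through the bigenic mice, which fixed their direction. The part of these shifts in the channel values was not tested.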

How the data were processed

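RNA-seq of right cortex from 4 bigenic and 4 nontransgenic mice was analysed from deposited tables. Per the labels and the study's methods, the authors selected poly(A) RNA, trimmed adaptors with cutadapt, mapped 50-base reads to mm9 with Bowtie 0.12.7, kept unique hits and counted exons with bedtools. The deposited values are a score, here called normalized counts: reads scaled mouse by mouse and then rounded, in a way that no source describes. Depth was therefore estimated from the spacing of whole numbers in each column, and 3 reads were worth between 1.94 and 6.20 normalized counts. The authors' DESeq2 table supplied transcript identifiers and symbols, and its comparison columns (means, fold changes, p-values and q-values) were not used.

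Transcripts that reached 10 RPM, relative to the summed values of a mouse, in any mouse were tested on log2(value + 1), which understates changes of low transcripts, with limma 3.58.1 (lmFit, eBayes with a trend) in R 4.3.3, two-sided, Benjamini-Hochberg, threshold 0.05, without covariates. The limma step and the estimate of depth were each tested on simulated data. Since separate litters are not named in the labels, p-values measure the spread between these mice. No 2 columns were identical or agreed within counting error. Positions, exon length and GC content come from GENCODE on the mm9 build (97.3% of genes), and promoters from RefSeq. Python 3.11.15, numpy 2.4.6, pandas 2.3.3, scipy 1.17.1 and matplotlib 3.10.9 were used.

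The members, partner lists and marker lists were chosen with earlier results of these data known. Full values were given for members past the threshold (at most 25), for partners the 3 smallest adjusted p-values of each list. Some of these genes are not reported here, but counts over the members and lists include them. Alternatives were 16 planned settings (pseudocounts of 10 and 0.1, 2 other filters, rescaling, quantile normalization, array weights, no trend and leaving out each mouse) and 2 chosen after seeing the data (limma voom on the estimated reads, and subtracting a fitted quadratic curve over exon GC content and length).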

Additional observations from a re-analysis of the deposited data

Results flagged for a closer look

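In 98 groups of 4 mice (49 transcripts in 2 groups), a mouse lay farther from its group than Dixon's critical value for 4 values allows in 8, and chance flags about 1 group in 20. Bigenic mouse B, the shallowest library, was that mouse in 6 of the 8. It was high for Atp2b3 at 3317 (next 2046), for Cacnb1 at 3342 (next 1912) and for Scn2b at 10405 (next 8795). It was low for Cacna2d1 at 4949 (next 6206), for Scn3a at 1137 (next 1255) and for Scn3b at 1218 (next 2214). Nontransgenic mouse E was low for Scn7a at 165 (next 176), and nontransgenic mouse H was high for Cacnb1 at 1538 (next 1186). Without mouse B, all 25 transcripts past the threshold kept their calls and 3 more passed (Cacnb3, Scn7a and Atp2b3), which made 28 of 49 (57.1%) against 45.5% of all transcripts. The part of depth in the values of mouse B was not tested.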

How the results depend on the processing

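No paired analysis was possible because the columns carry no replicate numbers of the labels. Of the 25 calls, 17 held under every one of 18 alternatives in which the transcript was tested, 18 with each mouse left out, and none turned its direction. Over the alternatives between 19 and 33 of the 49 transcripts passed, the most with limma array weights (67.3%, against 61.0% of all transcripts). With a mouse left out, 19 to 28 passed, 6 to 14 of them upregulated and 12 to 14 downregulated. This was 38.8 to 57.1% of the 49, against 25.1 to 45.5% of all transcripts. The upregulated count fell from 12 to 6 without mouse D and to 7 without mouse F or G. After the GC and length trend was removed, 34.8% of the calls were upregulated in place of 48%, and over all transcripts 52.5% in place of 57.1%. Over all transcripts 3796 passed, 6455 with array weights and 2654 to 4817 with a mouse left out. The rise in the share of Hcn3 was 3.09 percentage points per exon kilobase and 3.79 without division by length. With a mouse left out it lay between 2.92 and 3.33. The 14 paralogue ratios were run under 11 alternatives, and the smallest adjusted p in the exact permutation test was 0.05, for 8 pairs without mouse A. Since 9 pairs must reach the smallest p of 0.0286 before any passes, these p-values say nothing about stability. Depth bears most on the 8 transcripts under 10 RPM in at least 1 mouse (Hcn3, Ryr1, Trpc6, Scn7a, Cacng5, Trpc2 and the second entries of Scn8a and Cacnb2), and its part in their values was not tested.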
